A study of Mus musculus with 3 samples.

Results

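Gene expression in CD4+CD25- T cells activated for 2 days with IL-6 and IL-23 was set against that in the same cells activated with TGFβ alone. The pair takes 2 of the study's 3 arrays, 1 per condition, and its members are all 18193 genes named by a probe set with a single gene symbol. Donors of the cells, taken from spleen and lymph node, were BALB/c females aged 6 to 8 weeks in which both Stat6 and T-bet (Tbx21) were deleted. All cultures therefore carried both deletions, the TGFβ culture included, and the arrays hold no wild-type cells. STAT6 transmits the IL-4 signal towards the Th2 lineage, and T-bet is the lineage factor of Th1 cells. Anti-CD3 bound to the plate (5 µg/ml) and anti-CD28 (1 µg/ml) were present in every culture. TGFβ was added to one (5 ng/ml), and both IL-6 and IL-23 to the other (10 ng/ml each). These 2 cultures had no added cytokine in common, so a ratio between them cannot be assigned to IL-6, to IL-23 or to TGFβ. The third array, from cells given both IL-6 (10 ng/ml) and TGFβ (5 ng/ml), shares 1 cytokine with each and adds a further level beside the pair. The study asked which genes go with IL-10 during Th17 polarization, and its design text sets the IL-6/TGFβ array against each of the others, so the pair described here is the remaining one. The labels name neither the number of mice behind a culture nor whether they were pooled.

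TGFβ acts through receptor kinases that activate Smad proteins, and in activated CD4 T cells it induces Foxp3 and restrains IL-2 and effector genes. IL-6 acts through the shared receptor chain gp130 and the transcription factor STAT3, induces its own feedback inhibitor SOCS3 and opposes Foxp3. IL-23 also activates STAT3, in cells that carry its receptor, and is known for sustaining Th17 cells that cause tissue inflammation. Th17 cells make IL-17 and are classically induced in mice by IL-6 together with TGFβ.

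Levels below are normalized intensities in arbitrary units, listed for the TGFβ array first, then IL-6/IL-23, then IL-6/TGFβ. Ratios are log2 values of IL-6/IL-23 over TGFβ. Values under a floor of 48.5, taken from 106 probe sets whose genes belong to other organs (liver, muscle or lens among them), were raised to it. Where 1 array was at the floor the fold is only a minimum, written "at least", and the 8637 genes at the floor on both arrays were not read. Ratios of further probe sets used the same floor, so those of weak probe sets can be minima too. Genes were counted when the difference was at least 2-fold and the brighter array lay above the floor. With 1 array per condition no test was possible and no p-value is given. The only error that could be estimated was the spread of ratios between probe sets of a gene. For 1 probe set its SD was 0.30 log2 units when taken from the median absolute deviation, and 0.34 as a plain SD. This spread comes from 3931 genes with probe sets above the floor on both arrays, so it does not cover bounds. It leaves out differences between mice, cultures and arrays.

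Of 9556 genes above the floor on either array, 355 (3.71%) passed 2-fold upward in the IL-6/IL-23 culture and 339 (3.55%) downward, 7.26% in all. Every list count below is to be set beside these shares of 3.71% higher and 3.55% lower. The 4-fold mark was passed by 66 genes upward and 58 downward. The median ratio of the 8718 genes read on both arrays was 0.06, and the interquartile range ran from -0.22 to 0.32. Many genes sat near the 2-fold mark, with 59 higher genes within 0.1 log2 units above it and 89 within 0.1 below. The balance depended on scaling: 51.2% of counted genes were higher here, against 33.3% when arrays were scaled to the hybridization controls (246 higher, 493 lower) and 2.43% on the deposited intensities as given (84 higher, 3375 lower), where the median ratio was -0.86 and the medians of lists near 0 or above lay mostly below 0.

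**Figure D1:**
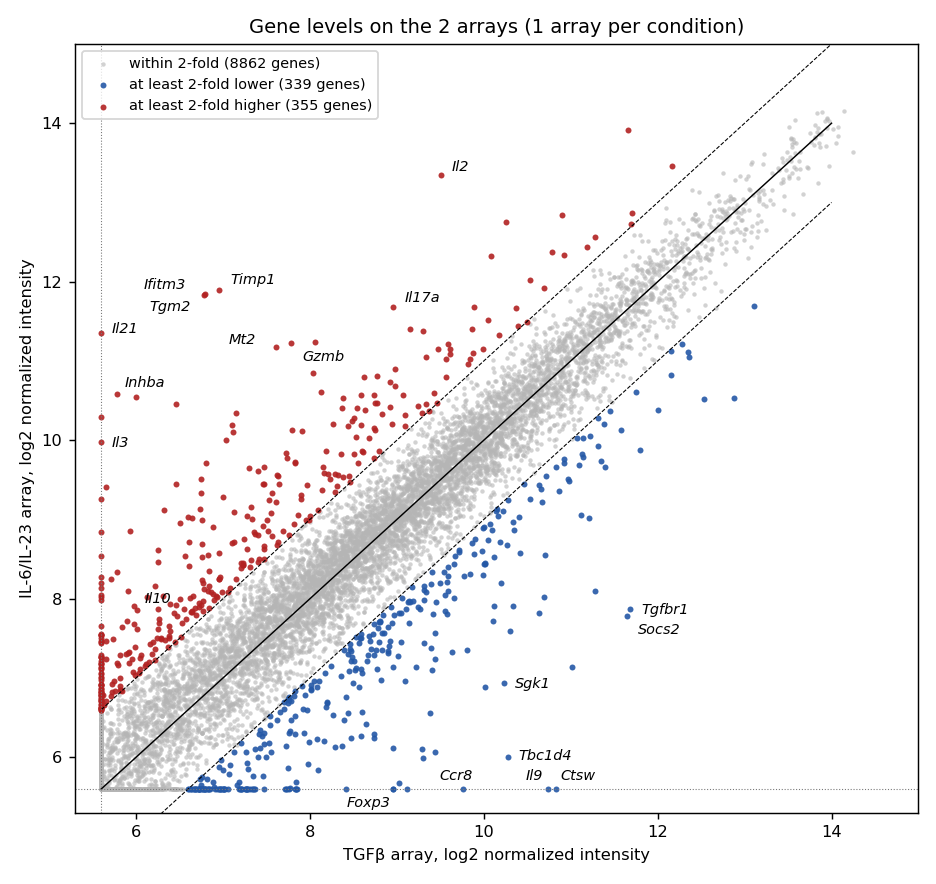
Each point is a gene above the floor on either array, at its log2 normalized intensity on the TGFβ array (x axis) and the IL-6/IL-23 array (y axis), with the solid line at equality, dashed lines at 2-fold and dotted lines at the floor. Red points are the 355 higher and blue points the 339 lower genes, and points on a dotted line were read on 1 array alone.

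The labelled cell type was checked against its markers. Of 11 measured T cell identity genes, 10 were within 2-fold and the median ratio was 0.05. The other one was Cd28, which reads as higher with IL-6/IL-23. Cd3d, a chain of the T cell receptor complex, read 4744, 6189 and 4744. Il2ra, which encodes the CD25 chain that the purified cells lacked on their surface, read 2390.0, 2803 and 3297 after the 2 days of activation. Stat6 read 259, 191 and 223 and Tbx21 189.7, 205 and 118, so both deleted genes gave signal on every array. Which exons each knockout lacks is not in the labels, and a probe set outside them checks nothing.

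Most markers of other cells lay below the floor. Of 7 B cell markers on the array 1 was above the floor, Ighm (649.6, 392 and 417), while Cd79a, Cd79b, Ms4a1 and Pax5 were below it on both arrays. Of 11 myeloid markers 3 were read, and Mpeg1, a macrophage gene, read 153, the floor and the floor (at least 3.15-fold lower), while Cd14, Lyz2 and Itgam were below the floor. The class II genes H2-Aa (107, the floor and 98.0), H2-Eb1 (129.6, the floor and 146) and H2-Ea (104, the floor and 136), which present antigen in dendritic cells and B cells, reached the floor in the IL-6/IL-23 culture and in no other. H2-Ab1 of the same complex went the other way (121, 202 and 136), and Itgax, Flt3 and Xcr1 were below the floor. Summed over members above the floor on each array, myeloid markers gave 216, 49.4 and 79.4 and dendritic cell markers 410, 335 and 479. Among CD8 and NK lineage markers 4 of 8 were read and 0 were 2-fold apart. In such bulk RNA, fewer cells of a type and less RNA per cell cannot be told apart, and the part of other cells in the ratios below was not tested.

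Genes of the IL-6 pathway were more often higher than lower with IL-6/IL-23. The list of STAT3 and IL-6 targets had 18 measured members, 8 of them higher and 1 lower, with a median ratio of 0.87 (-0.03 without scaling), against 3.71% higher and a median of 0.06 over all measured genes. Tgm2 and Timp1 had been put on this list with their ratios known, and without both it held 6 higher and 1 lower of 16 (median 0.84). The list as a whole was chosen with earlier results of these data known, so the reduced counts are not independent of them either. Timp1, an inhibitor of matrix metalloproteinases, read 124, 3814 and 3969.6, a 30.7-fold higher level in the pair. It was thus low on the TGFβ array and high on both arrays that had received IL-6. Tgm2, a transglutaminase that cross-links proteins, read 109.8, 3654 and 6668 (33.3-fold), with ratios of 5 readable probe sets from 3.50 to 5.06. Socs3, which shuts off gp130 signalling, read 426, 1518 and 3092 (1.83).

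Transcription factors made up much of the rest of that list. Nfil3, a basic leucine zipper factor, read 52.3, 304 and 355 (5.82-fold higher). Batf, an AP-1 factor needed for Th17 differentiation, read 386, 1524 and 1168 (1.98). Both were at like levels on the 2 arrays with IL-6. Fos, an AP-1 subunit of early activation, read 108, 509 and 185 (4.71-fold), and was highest in the IL-6/IL-23 culture. Bcl6, the repressor of follicular helper cells, read 83.1, 201 and 208 (1.28, with a further probe set at 0.55 or more). Stat3 itself read 2564, 2469 and 3169 (-0.05). Il6ra, the ligand-binding chain of the IL-6 receptor, was the lower member at 156, 57.6 and 102 (-1.44), and its partner Il6st, which encodes gp130, read 234, 164 and 559 (-0.51).

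Th17 genes split. Of 8 measured members, 4 were higher and 2 lower, with a median of 1.25 that turned to -0.04 when all probe sets of a gene were averaged. Il17a, the signature cytokine, read 498, 3273 and 3211. Il21, whose product acts back on Th17 cells, did not pass the floor with TGFβ alone and read 2626 with IL-6/IL-23, at least 54.1-fold higher. A further probe set of Il21, also at the floor with TGFβ alone, gave at least 4.07 log2 units. The other higher members were Batf and Il1r1, a receptor chain through which IL-1 supports Th17 cells (the floor, 187 and 82.8, at least 3.85-fold). For Il1r1 the mean over probe sets lay below the floor on both arrays.

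Both lower Th17 members belong to 1 chemokine pair. Ccl20 read 343, the floor and 416, at least 7.06-fold lower with IL-6/IL-23, and its receptor Ccr6 read 548, 125 and 387 (4.39-fold lower). Each was high on both arrays with TGFβ. Rora, a nuclear receptor of the Th17 programme, read 507, 748 and 1800.5 (0.56), and Irf4, an activation-induced factor that Th17 cells need, read 3447, 3408 and 4374 (-0.02). Il17f, Il22 and Il23r were not analysed here.

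**Figure D2:**
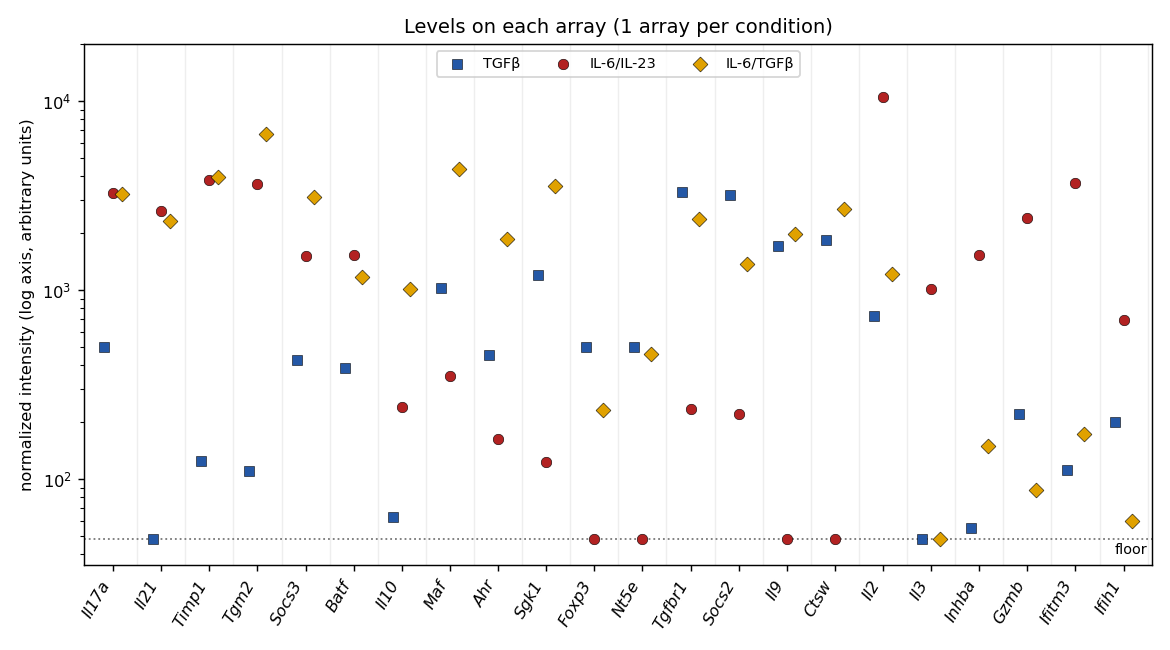
Normalized intensity (log axis) of 22 genes on the TGFβ (square), IL-6/IL-23 (circle) and IL-6/TGFβ (diamond) arrays, with the floor as a dotted line. From left to right, the genes from Il17a to Il10 were lowest with TGFβ alone, those from Maf to Ctsw lowest with IL-6/IL-23, and those from Il2 to Ifih1 highest with IL-6/IL-23.

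Regulatory T cell genes were the list with the lowest median among those with more than 10 measured members. Of 17, 10 were lower and 2 higher with IL-6/IL-23, and the median was -1.39, against 3.55% lower over all measured genes. The count of lower members was 6 with probe sets averaged (median -0.55) and 6 without probe sets of a cross-hybridization suffix (median -0.40), and between 6 and 12 over the 10 alternatives. Foxp3, the defining transcription factor, read 498, the floor and 232 (at least 10.3-fold lower). Nt5e, the CD73 enzyme that makes adenosine outside the cell, read 498, the floor and 456 (at least 10.3-fold lower), and Entpd1, the CD39 enzyme of the step before, read 214, the floor and 371 (at least 4.41-fold lower). Both enzymes were thus read on the arrays with TGFβ and at the floor without it. A further probe set of Entpd1 gave -0.59.

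Socs2, an inhibitor of cytokine signalling downstream of STAT5, read 3199, 220.2 and 1379 (14.5-fold lower). Its 5 readable probe sets ranged from -3.88 to -0.02. Nrp1, a surface receptor of thymus-derived regulatory T cells, read 667, 94.7 and 52.4 (7.04-fold lower), and was low on both arrays that had received IL-6. Its 4 readable probe sets ranged from -2.82 to -0.54. Capg, an actin-capping protein, read 5939, 1469.5 and 5453 (-2.01), but a further probe set gave at least 0.70, the opposite sign. Gpr83, an orphan receptor, read 518, 155 and 495 (-1.74), and Ikzf4, which encodes the zinc finger protein Eos, read 426, 157 and 413 (-1.44). The higher members were Ctla4, an inhibitory receptor (1153, 2578 and 2967, 1.16), and Icos, a costimulatory receptor at the 2-fold mark (1445, 2892 and 1448, 1.00).

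TGFβ response genes were more often lower than higher. Of 17 measured, 8 (47.1%, against 3.55% of all measured genes) were lower and 2 (11.8%, against 3.71%) higher (median -0.93). Tgfbr1, the signalling receptor chain, read 3297, 235 and 2387, 14.0-fold lower with IL-6/IL-23, with 3 probe sets between -3.81 and -2.10. Tgfbr2, the ligand-binding chain, differed less (1588, 835 and 1619, -0.93). Ldlrad4, a membrane protein that dampens Smad activation, read 212, the floor and 496 (at least 4.37-fold lower). Skil, a Smad corepressor that TGFβ induces, read 2609, 852 and 2667 (-1.61), and its relative Ski 746, 325 and 933 (-1.20, with a further probe set at -0.03). Each of these read higher on both arrays with TGFβ than on the one without.

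The inhibitors of DNA binding of this list did not go 1 way. Id3 read 128, 625 and 71.1, 4.87-fold higher with IL-6/IL-23 than with TGFβ, and Id2 read 710.4, 2279 and 2704 (3.21-fold higher), whereas Id1 read 129, the floor and 106 and was at least 2.66-fold lower. Id3 stood out on 1 array, while Id2 was high on both arrays with IL-6. The 3 probe sets of Id2 ranged from 0.47 to 2.97. Itgae, the αE integrin chain that TGFβ induces, read 108, the floor and 91.0 (at least 2.23-fold lower, with a further probe set at -0.31).

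**Figure D3:**
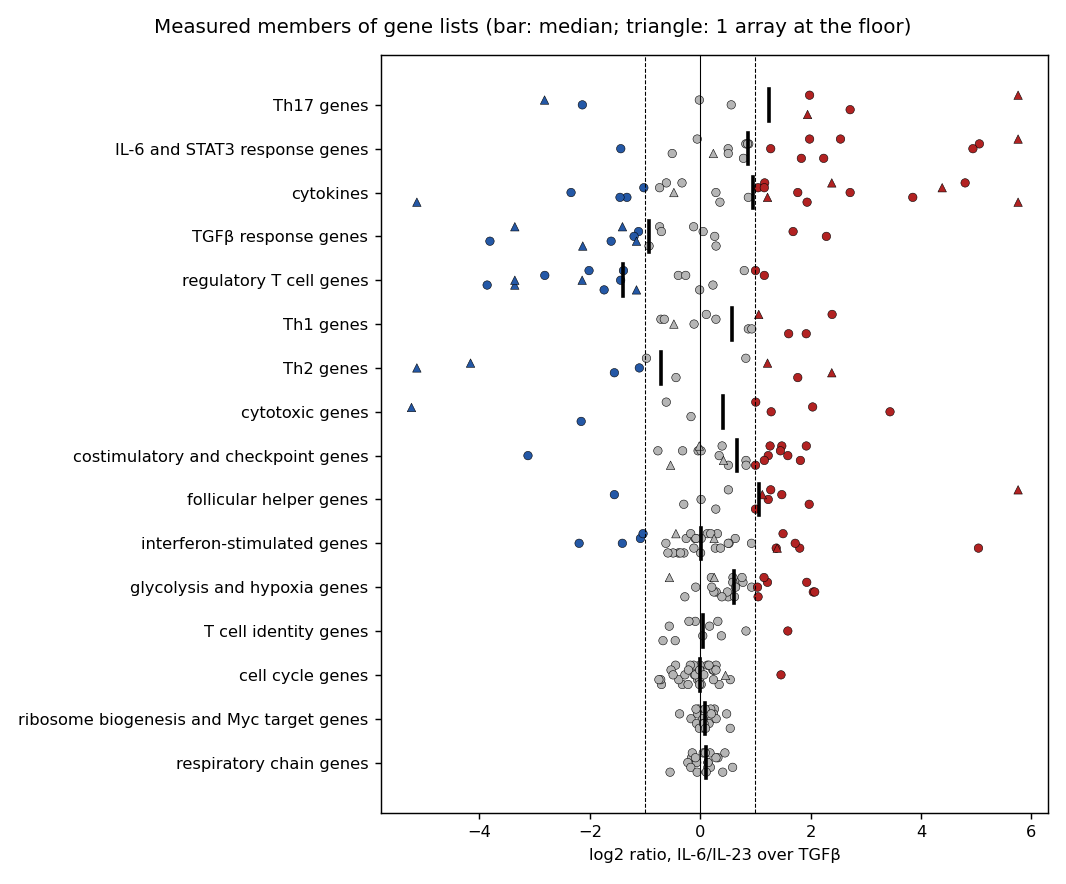
Each point is a measured member of a gene list at its log2 ratio of IL-6/IL-23 over TGFβ, with higher genes in red, lower in blue and genes within 2-fold in grey; triangles had 1 array at the floor, bars mark medians and dashed lines 2-fold. The regulatory T cell and TGFβ response lists lie left of 0, with medians of -1.39 and -0.93. Cell cycle, ribosome and respiratory chain genes stay close to 0 in these normalized values.

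Cytokine genes were among those that differed most. Of 24 measured, 12 (50%, against 3.71% of all measured genes) were higher and 5 (20.8%, against 3.55%) lower (median 0.96, or -0.04 without scaling). Il2, the growth factor of activated T cells, gave 726, 10464 and 1208, 14.4-fold higher in the pair. Il3, a growth factor of blood cells, read 1012 with IL-6/IL-23 and was at the floor on the other arrays (at least 20.9-fold). Inhba, a subunit of activin, read 55.1, 1533 and 150.2 (27.8-fold higher), though with its unreadable probe set averaged in the ratio was 1.02. All 3 were far higher in the IL-6/IL-23 culture than on either array with TGFβ.

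Il10, the anti-inflammatory cytokine the study was about, was 3.82-fold higher with IL-6/IL-23 than with TGFβ, and read 62.8, 240.1 and 1012. The lower cytokines were Il9, which TGFβ promotes (at least 35.1-fold lower), Lta, which encodes lymphotoxin α (7534, 1487 and 5684, 5.07-fold lower), and, outside the naming rule, Tnfsf11, the osteoclast factor RANKL (1634, 596 and 62.1, -1.45), Ltb, which encodes lymphotoxin β (4555, 1814 and 2689, -1.33), and Il16 (1135, 559 and 1268, -1.02). Il9 read 1704, the floor and 1976. A further probe set of Il16 gave 0.05. Ifng, the Th1 cytokine, read 125, 229 and 74.0 (0.87) and Tnf 648, 789 and 583 (0.28), both within 2-fold.

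Several of the higher cytokines are neighbours on chromosome 11. Along the RefSeq annotation from Kif3a to Acsl6 there were 14 protein-coding genes, of which 12 were measured, 7 were higher and 0 lower. Over all measured genes 3.71% were higher. The stretch ends at Acsl6, the last gene of a run of higher neighbours found in these same ratios, so its count supports nothing by itself. Il4, the Th2 cytokine, read 108, 368 and 199 (3.40-fold higher). Il13, a cytokine of allergic inflammation, read 253 with IL-6/IL-23 and was at the floor on the others (at least 5.21-fold). Il5, the eosinophil factor, read 113 with IL-6/IL-23 and was at the floor on the others (at least 2.33-fold). Csf2, which encodes GM-CSF, a product of inflammatory T cells, read 115, 237 and the floor (2.07-fold higher), next to Il3. Of the measured genes between Il4 and Il3 that encode no cytokine, P4ha2, a collagen hydroxylase subunit, was at least 2.02-fold higher and the other 4 were near 0. Of these, Rad50, a DNA repair gene, read 566, 537 and 509.7, Irf1 1894, 1778 and 1129.7 and the carnitine transporter Slc22a5 182, 202 and 191. Csf2 and Acsl6 were just past 2-fold, while for P4ha2 only the minimum lay there. With arrays scaled to the hybridization controls, Csf2 (0.82), P4ha2 (0.87, a minimum) and Acsl6 (0.84) did not pass the mark.

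**Figure D4:**
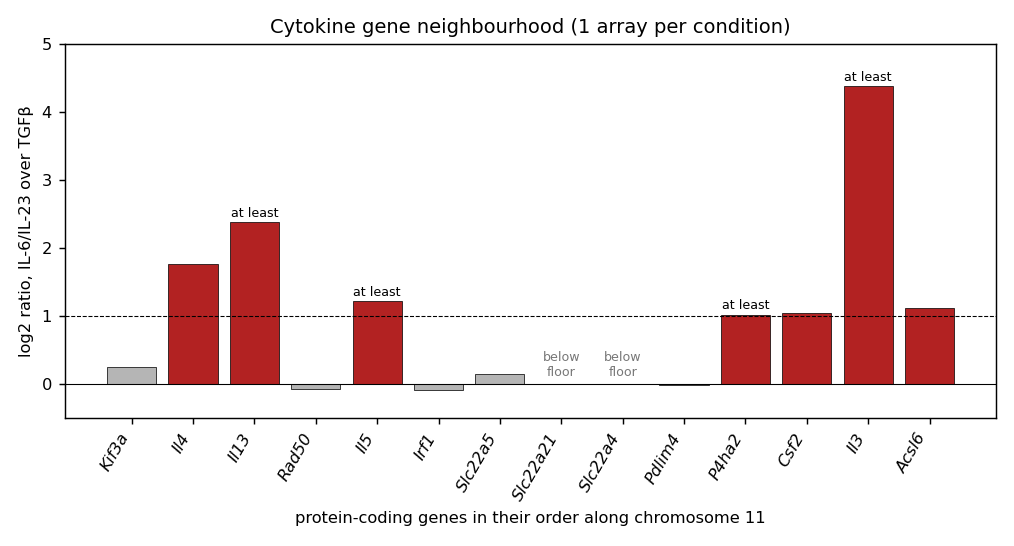
Bars give the log2 ratio of IL-6/IL-23 over TGFβ for the protein-coding genes from Kif3a to Acsl6 in their order along chromosome 11, with the dashed line at 2-fold and "at least" over bars with the TGFβ array at the floor. Il4, Il13, Il5, P4ha2, Csf2, Il3 and Acsl6 pass 2-fold, and Rad50, Irf1, Slc22a5 and Pdlim4 lie near 0.

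In the Th2 list these cytokines stood against other members. Of 10 measured, 3 (30%, against 3.71% of all measured genes) were higher, namely Il4, Il5 and Il13. Another 4 (40%, against 3.55%) were lower, and the list median was -0.71. The lower ones were Il9, Ccr8, a chemokine receptor of Th2 and regulatory cells (868, the floor and 538, at least 17.9-fold lower), Maf (-1.56) and Gata3, the master regulator of the Th2 lineage (258, 120.1 and the floor, 2.15-fold lower). All 10 members are read here in cells without Stat6. The Th1 list held 12 measured genes, 4 higher (33.3%, against 3.71% of all measured genes) and 0 lower (median 0.58, or -0.37 without scaling). These were Cxcr3, the chemokine receptor of Th1 cells (107, 561 and 136, 5.24-fold higher), the IL-12 receptor chains Il12rb1 (504, 1908 and 718, 3.78-fold), which also binds IL-23, and Il12rb2 (the floor, 101 and the floor, at least 2.08-fold), and Stat4, which carries their signal (386, 1171 and 467, 3.03-fold). All 4 were highest in the IL-6/IL-23 culture, while Il12rb2 lay at the floor in both others.

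Over 29 measured transcription factors of helper lineages, 9 were higher and 4 lower (median 0.13, or -0.03 with hybridization control scaling). Beside Nfil3, Id3, Batf, Id2, Stat4 and Bcl6, the higher ones were Hif1a, the oxygen-regulated factor that supports Th17 cells (3319.9, 6815 and 7006, 1.04), Gfi1, a repressor (312, 763 and 474, 1.29), and Tox2 (the floor, 106 and 801, at least 2.18-fold). Beside Foxp3 and Gata3, the lower ones were Maf and Ahr. Maf, a factor that drives Il10 and Il4 transcription, read 1031, 351 and 4388, and its 4 probe sets lay between -1.56 and -0.75. Ahr, the aryl hydrocarbon receptor, read 456, 163 and 1861, and a further probe set gave -0.29 or lower. Maf and Ahr were thus lowest, and Il10 in the middle, on the IL-6/IL-23 array. Of 5 measured genes of the Ahr pathway, Tiparp, a target that feeds back on the receptor, was the higher one (155, 527 and 751, 1.77), and Ahr itself the lower one.

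Of 23 cytokine receptor chains 4 were higher and 3 lower (median -0.19). The higher ones were Il1r1, Il12rb1, Il12rb2 and Il7r, the receptor of a survival cytokine (169, 447 and 676, 1.40). Il10rb, a chain of the IL-10 receptor, read 810.0, 258 and 533 (-1.65) and Tnfrsf1b, the second TNF receptor, 479.9, 169 and 503 (2.84-fold lower), and together with Il6ra they were the lower ones. Il2rb and Il2ra stayed within 2-fold (-0.19 and 0.23).

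Costimulatory and checkpoint receptors were more often higher. Of 22 measured, 9 (40.9%, against 3.71% of all measured genes) were higher and 1 (4.55%, against 3.55%) was lower (median 0.67, or -0.02 without scaling). Lag3, an inhibitory receptor that binds class II molecules, read 109, 412 and 168 (3.79-fold higher). Slamf1, a costimulatory receptor, read 487, 1711 and 633 (3.52-fold), and Cd28, the receptor engaged in all cultures, read 1770.4, 5316 and 2840.4 (1.59). All 3 were highest with IL-6/IL-23. Btla, an inhibitory receptor, read 1057, 2943 and 727 (1.48), and Cd200, an inhibitory ligand, 758, 1781 and 586 (1.23). The TNF family ligands Tnfsf8 (165, 451 and the floor) and Tnfsf14 (75.7, 182 and 89.6) were also higher, at 1.45 and 1.27. A further probe set of Tnfsf14 gave 0.34. With probe sets averaged, Tnfsf14 lay at 0.80, short of 2-fold, and 7 members of the list were higher. The lower member was Cd96, a receptor for nectin-like ligands (1033, 119 and 319, 8.70-fold lower). Follicular helper genes overlapped with this list: of 12 measured, 7 were higher and 1, Maf, was lower (median 1.06), and its Pou2af1, a transcriptional coactivator, read 178, 699 and 1404 (1.97). With probe sets averaged, 5 follicular helper genes were higher, and Icos lay at 0.76.

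General activation genes went both ways as well, with 2 of 22 (9.09%) higher and 2 (9.09%) lower, against 3.71% and 3.55% of all measured genes (median 0.24). Il2 and Nr4a2 (228, 848 and 254, 1.89) were higher, and Nr4a3 (3556, 943 and 522, -1.92) and Irf8 (8816, 3315 and 4659, -1.41) were lower. The 2 orphan nuclear receptors Nr4a2 and Nr4a3, both induced by T cell receptor signals, thus went opposite ways, and Nr4a1 read 3094, 2929 and 1451 (-0.08). Egr1, an early response factor, read 1986, 3839.8 and 1891 (0.95) and Rel, an NF-κB subunit, 246, 489 and 128 (0.99), both just short of 2-fold. Among 14 MAP kinase feedback genes, 3 were higher, the phosphatases Dusp6 (505, 1651 and 538, 1.71) and Dusp16 (88.1, 242 and 231, 1.46) and the inhibitor Spry1 (438, 1415 and 342, 1.69). Dusp5 (1078, 493 and 333, -1.13) and Rasa3 (357, 162 and 772, -1.14) were lower.

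Granule genes and protease inhibitors held some of the largest ratios, in both directions. Of 8 measured cytotoxic genes, 4 (50%, against 3.71% of all measured genes) were higher and 2 (25%, against 3.55%) lower. Gzmb, which encodes granzyme B, read 221, 2392 and 87.2 (10.8-fold higher), and Serpinb9, the inhibitor that protects cells from it, read 332, 1361 and the floor (4.10-fold higher). Both were highest with IL-6/IL-23 and lowest with IL-6/TGFβ. Serpinb6b read 353, 709 and the floor (1.01) and Srgn, the proteoglycan of secretory granules, 4608, 11229 and 9089 (1.28). Ctsw, a cathepsin of cytotoxic lymphocytes, was the lowest bound of all genes, reading 1829, the floor and 2695, at least 37.7-fold lower. Nkg7, a granule membrane protein, read 229.8, 51.5 and 51.6 (4.46-fold lower). Prf1, which encodes perforin, and the 8 other granzyme genes of the list were below the floor on both arrays.

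Cysteine protease inhibitors went opposite ways too. Ctla2a read 2478, 273 and 9114 (9.07-fold lower) and Ctla2b 696, 67.3 and 3035 (10.4-fold lower). Both were lowest with IL-6/IL-23 and highest with IL-6/TGFβ, but these paralogs are so alike that each one's own value is uncertain. Cst7, a cystatin of cytotoxic cells, read 139, 1097 and 195 (7.88-fold higher). Serpinf1, a secreted serpin, read the floor, 612 and 111 (at least 12.6-fold higher), with a further probe set at 1.08 or more.

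Interferon-stimulated genes went both ways. Of 34 measured, 6 (17.6%, against 3.71% of all measured genes) were higher and 4 (11.8%, against 3.55%) were lower, with a median of 0.01. Without the 4 members whose ratios were known when the list was written, 3 were higher and 3 lower of 30. This list too was chosen with earlier results of these data known. The higher ones are shown with their promoters from RefSeq (build GRCm38.p6), which reach from 250 bases before to 50 bases after the annotated start. A promoter was found for 5 of the 6, all but Zbp1. Capitals mark the interferon response element, GAAA and GAAA with any 2 bases between them, on either strand. It is marked because each of the 5 windows held it, against 3.44% of all 32851 promoters and 2.86% of those of measured genes. These genes were drawn from a list of interferon-stimulated genes, and 11 of 21 members within 2-fold that had a promoter held it too.
Ifitm3 (chr7:141010695-141010994, minus strand): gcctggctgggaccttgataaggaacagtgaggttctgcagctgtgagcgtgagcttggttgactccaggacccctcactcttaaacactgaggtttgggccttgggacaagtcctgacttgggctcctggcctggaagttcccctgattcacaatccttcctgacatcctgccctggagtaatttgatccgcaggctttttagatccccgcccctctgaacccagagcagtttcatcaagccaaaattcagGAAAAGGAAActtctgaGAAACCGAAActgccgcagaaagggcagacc
Ifitm2 (chr7:140955912-140956211, minus strand): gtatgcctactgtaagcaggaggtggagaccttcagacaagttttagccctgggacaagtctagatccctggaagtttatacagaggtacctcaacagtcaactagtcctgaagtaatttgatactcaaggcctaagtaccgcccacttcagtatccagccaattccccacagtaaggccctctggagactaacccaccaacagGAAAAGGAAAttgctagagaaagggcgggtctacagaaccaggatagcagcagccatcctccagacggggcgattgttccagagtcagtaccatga
Ifih1 (chr2:62646206-62646505, minus strand): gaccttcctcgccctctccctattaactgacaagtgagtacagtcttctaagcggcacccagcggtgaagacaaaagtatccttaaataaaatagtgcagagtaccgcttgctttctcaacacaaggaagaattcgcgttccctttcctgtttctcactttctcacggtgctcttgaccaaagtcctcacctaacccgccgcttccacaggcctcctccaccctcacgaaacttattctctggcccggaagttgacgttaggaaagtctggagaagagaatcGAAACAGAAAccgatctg
Gbp7 (chr3:142530086-142530385, plus strand): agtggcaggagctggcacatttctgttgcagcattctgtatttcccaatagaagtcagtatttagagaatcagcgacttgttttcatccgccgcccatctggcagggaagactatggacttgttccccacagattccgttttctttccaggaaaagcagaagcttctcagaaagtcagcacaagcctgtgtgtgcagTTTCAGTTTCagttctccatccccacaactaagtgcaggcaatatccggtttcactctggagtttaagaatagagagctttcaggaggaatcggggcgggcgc
Oas3 (chr5:120777610-120777909, minus strand): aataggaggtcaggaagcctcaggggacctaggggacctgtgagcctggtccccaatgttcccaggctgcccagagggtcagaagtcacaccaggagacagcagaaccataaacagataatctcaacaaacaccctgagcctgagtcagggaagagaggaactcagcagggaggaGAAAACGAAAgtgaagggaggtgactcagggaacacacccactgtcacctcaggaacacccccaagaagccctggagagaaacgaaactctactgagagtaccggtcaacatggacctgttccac

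Ifitm3, a membrane protein that blocks virus entry, read 111, 3665 and 173, 32.9-fold higher with IL-6/IL-23, and its window held 2 matches. Ifitm2, its neighbour and paralog, read 644, 2123 and 209 (3.30-fold higher), and cross-hybridization between both was not tested. Ifih1, which encodes the viral RNA sensor MDA5, read 200.2, 698 and 60.2 (3.49-fold higher). All 3 were highest with IL-6/IL-23 and lower than that on both other arrays. Gbp7, a guanylate-binding protein, read 457, 1291 and 263 (2.83-fold), Oas3, an antiviral synthetase, read the floor, 128 and the floor (at least 2.63-fold higher), and Zbp1, a nucleic acid sensor, read 429.8, 1116 and 670.0 (1.38).

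The motif was also found in members that were not higher. It was present in 11 of 21 members within 2-fold that had a promoter, among them Stat2, Bst2, Gbp2 and Ifit3, and in 1 of 3 lower ones, Mndal. Mndal, of the interferon-induced p200 family, read 692, 151 and 141 (4.58-fold lower), and Irf8, a factor of the interferon pathway, was lower as given above. The other lower members, outside the naming rule, were Ifi35 (2801, 1322 and 3143, -1.08) and Iigp1 (4568, 2227 and 1548, -1.04). Isg20 (0.02), Irf9 (-0.12) and Usp18 (-0.08) stayed near 0, and Ifit1, Mx1, Irf7 and Rsad2 were below the floor.

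Over all genes, matches to the motifs searched were counted in the promoters of 282 higher and 272 lower genes, 372 and 354 windows. The interferon response element was in 6.18% of windows of higher genes, 3.39% of lower genes and 2.86% of all measured genes. The STAT motif TTCNNNGAA was in 5.91%, 10.2% and 6.71%. The AP-1 motif TGANTCA was in 9.41%, 7.06% and 4.66%, and the core GCGTG of the aryl hydrocarbon receptor in 46.8%, 45.2% and 52.1%. The Smad motif GTCTAGAC was in 0%, 0.282% and 0.280%. Both strands were searched, overlapping matches of different motifs counted for each, and a match describes letters and not a bound site. Socs3 is shown because it is a textbook STAT3 target in this list and its window held 1 STAT match, in capitals.
Socs3 (chr11:117969317-117969616, minus strand): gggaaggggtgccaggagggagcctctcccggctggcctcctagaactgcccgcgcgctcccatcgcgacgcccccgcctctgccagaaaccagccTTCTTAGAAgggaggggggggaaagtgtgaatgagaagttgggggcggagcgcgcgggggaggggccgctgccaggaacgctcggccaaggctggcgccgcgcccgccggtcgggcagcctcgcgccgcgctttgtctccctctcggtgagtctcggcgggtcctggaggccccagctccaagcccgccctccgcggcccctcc

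Receptors that guide migration went both ways. Of 16 measured receptors, 3 (18.8%, against 3.71% of all measured genes) were higher and 4 (25%, against 3.55%) lower (median -0.13). Cxcr3, Ptger2, a receptor of prostaglandin E2 (307, 1178 and 369.8, 3.84-fold higher), and Cysltr1, a leukotriene receptor (56.3, 157 and 467, 1.48), were higher. Ccr8, Ccr6, P2ry10 (1169.7, 419 and 1089.7, -1.48) and Ptger4, another prostaglandin E2 receptor (2552, 1239 and 1174, -1.04), were lower. The 2 receptors of 1 prostaglandin thus differed in direction, and Ptger4 lay at -0.92 after median scaling. Of 8 chemokines, Ccl22 (98.2, 258 and the floor, 1.39) and Ccl4 (317, 684 and 138, 1.11) were higher, and Ccl20, Xcl1 (217, the floor and 68.6, at least 4.48-fold) and Ccl1 (209, 97.3 and the floor, 2.15-fold) were lower.

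Of 20 adhesion genes 3 (15%, against 3.71% of all measured genes) were higher and 2 (10%, against 3.55%) lower. Itga3, an integrin chain that binds laminin, read 63.8, 1489 and 343 (23.3-fold higher), and 3 probe sets lay between 2.76 and 4.54. Lgals3, which encodes galectin-3, read the floor, 139.5 and 143 (at least 2.88-fold) and the tetraspanin Cd9 426, 1140.1 and 422 (1.42). Vcam1, an adhesion ligand (147, the floor and the floor, at least 3.04-fold), and Itgae were lower. Of 7 genes of extracellular nucleotide handling 3 were lower, Nt5e, Entpd1 and P2rx7, the ATP-gated channel (130.1, the floor and 91.7, at least 2.68-fold), for which a further probe set gave 0.24.

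Resting T cell genes went both ways, with 4 of 17 higher and 3 lower (median -0.09). Klf2, which controls homing receptors, read 309, 92.5 and 339 (3.34-fold lower), Klf3 272, 75.1 and 130.2 (-1.86) and Ets1 4982, 2379 and 4899 (-1.07). Klf3 had another probe set at 0.15. The 4 readable probe sets of Ets1 ranged from -1.07 to -0.29, and averaged they gave -0.62, short of 2-fold. Satb1, a chromatin organizer, read 1225, 6899 and 5894 (5.63-fold higher), with 4 probe sets from 0.71 to 2.79. Slfn2, which maintains quiescence, read 949, 3285 and 657 (1.79), and Btg2, an antiproliferative gene, 387, 928 and 711 (1.26). Il7r completes the higher members. Sgk1, a kinase that inactivates Foxo factors, read 1201, 123 and 3559 (9.78-fold lower).

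Glucose and hypoxia genes were higher in part. Of 26 measured, 7 (26.9%, against 3.71% of all measured genes) were higher and 0 lower (median 0.61, or -0.13 without scaling). Slc2a3, the glucose transporter GLUT3, read 629.8, 2652 and 452 (4.21-fold higher), Bnip3, a hypoxia-induced mitophagy gene, 436, 1800.5 and 1279.8 (4.13-fold) and Ndrg1 198, 753 and 262 (3.81-fold). Bnip3 and Hif1a were higher on both arrays with IL-6 than with TGFβ alone, while Slc2a3 was highest with IL-6/IL-23 alone. Hk2, the inducible hexokinase, read 1342, 2775 and 1569 (1.05), the lactate exporter Slc16a3 150.2, 349 and 235 (1.22) and Vegfa 74.3, 166 and 86.2 (1.16). The glycolytic genes Ldha (0.20) and Pgk1 (0.39) stayed within 2-fold.

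Metallothioneins were higher: Mt1, a zinc-binding protein, read 268, 2424 and 798 (9.06-fold) and Mt2 195, 2311 and 1399.9 (11.9-fold). They are close paralogs, so the share of each is uncertain, and the third higher gene of 9 in the zinc list was the transporter Slc30a4 (1.09). Of 23 amino acid response genes, 3 were higher, Cth, an enzyme of cysteine synthesis (99.8, 519 and the floor, 5.20-fold), Atf3 (138, 416 and 85.0, 1.59) and Sesn2 (143, 305 and 138, 2.14-fold), and 2 were lower, Cebpb (1304, 468 and 878, -1.48) and Nupr1 (133, the floor and the floor, at least 2.75-fold). Cth was highest with IL-6/IL-23 and at the floor with IL-6/TGFβ. The transcription factor of this pathway, Atf4, read 2639, 3296 and 2520.1 (0.32).

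After normalization, growth programmes were close to equal. Of 34 cell cycle genes 1 (2.94%, against 3.71% of all measured genes) was higher, Cdk6 (759, 2091 and 1711, 1.46), and 0 were lower (median -0.01). All 22 ribosome biogenesis and Myc target genes were within 2-fold (median 0.08), Myc itself at 0.24. All 21 respiratory chain genes were within 2-fold as well (median 0.11). Without scaling, 12 cell cycle genes were lower, and the medians were -0.92 for cell cycle, -0.69 for ribosome biogenesis and -0.67 for respiratory chain genes. The median over all genes read on both arrays was then -0.86. Of 17 cholesterol synthesis genes 1 was higher, Lss (225, 492 and 233, 1.13, with a further probe set at 0.38), and of 22 heat shock and chaperone genes 1, Hspa1b (73.2, 175 and the floor, 1.26). Among 11 Bcl2 family genes, Bcl2l11, which encodes the death factor Bim (124, 305 and 218, 1.30), and Bcl2l2 (73.0, 158 and 73.7, 1.11) were higher. The 5 readable probe sets of Bcl2l11 ranged from 0.10 to 1.33. Of 9 regulators of mRNA decay 1 was higher, Zc3h12d (189.6, 646 and 448, 1.77).

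Among all genes, the largest ratios read on both arrays after Tgm2, Ifitm3, Timp1, Inhba and Itga3 were those of AI504432, an unannotated transcript (87.8, 1407 and 192, 16.0-fold), Il2, Tg, which encodes thyroglobulin (50.6, 683 and the floor, 13.5-fold), Mt2, Gzmb, Plek, a substrate of protein kinase C (143, 1303 and 226, 9.14-fold), Mt1, Casp6 (138, 1167 and 409.7, 8.45-fold), S100a6 (88.1, 699.5 and 278, 7.94-fold) and Cst7. A further probe set of Casp6 gave at least 0.10. After Il21, the largest bounds upward were Lum, a matrix proteoglycan (at least 25.9-fold), Il3, Serpinf1, Ramp3, a receptor-modifying protein (at least 9.47-fold), Gem, a small GTPase (at least 7.69-fold), Plac8 (at least 6.37-fold), the aldo-keto reductase Akr1b8 (at least 6.05-fold), the inflammatory caspase Casp4 (at least 5.78-fold) and Kcna3, the potassium channel of effector T cells (at least 5.48-fold). Lum, Ramp3, Casp4 and Kcna3 were at the floor on both other arrays.

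The lowest ratio read on both arrays was that of Tbc1d4, a regulator of glucose transporter traffic (1241, 64.4 and 493, 19.3-fold lower). A further probe set of it gave -0.94. Lad1, an anchoring filament protein (2077, 141 and the floor, 14.7-fold lower), Socs2 and Tgfbr1 followed, then Ctla2b, the TNF receptor family gene Cd40 (522, 51.2 and 191, 10.2-fold lower), Rragd, a GTPase of amino acid sensing (631, 63.6 and 374, 9.91-fold lower, with a further probe set at -0.69), Sgk1, Kctd14 (625, 68.8 and 779, 9.09-fold lower, with another probe set at -0.01), Ctla2a and Cd96. Further down were Cttn, an actin-binding protein (7.16-fold lower), Nrp1, the sodium pump subunit Atp1b1 (7.04-fold lower) and Zbtb18, a repressor (6.52-fold lower). After Ctsw, Il9 and Ccr8, the largest bounds downward were Aqp3, a water and glycerol channel (555, the floor and 1542, at least 11.4-fold lower), Foxp3, Nt5e, Ccl20, Cd72 (at least 4.78-fold), Nppc (at least 4.73-fold) and Fbxo2 (at least 4.72-fold).

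Neighbouring genes that passed 2-fold in 1 direction formed 7 runs of at least 3 measured genes. Besides that of Csf2 and Il3 on chromosome 11, a run on chromosome 1 held Raph1 (1.89), Cd28, Ctla4 and Icos, the last 3 of which are related receptors. The class II run on chromosome 17 was described above. The others were Ifih1, Cobll1 (1.54) and Galnt3 (1.95) on chromosome 2, Cd53 (1.94), Kcna3 and AI504432 on chromosome 3, Tesk1 (-1.27), Cd72 and Sit1 (-1.53) on chromosome 4, and Mfhas1 (1.49), Prag1 (at least 3.65-fold) and Lonrf1 (1.24) on chromosome 8. All but those on chromosomes 4 and 17 were higher with IL-6/IL-23.

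Further probe sets of a gene gave a check on single ratios, though they come from the same 2 arrays. Only probe sets above the floor on both arrays were taken, so every ratio that is a bound was left out of this check. In 226 genes the brightest of them was at least 2-fold apart and had a second one beside it. The sign was shared by the second one in 211 genes (93.4%), and in 79.2% its ratio was past 0.5 log2 units in that direction. Averaging all probe sets of a gene brought some ratios nearer to 0. It took Rragd to -0.78, Entpd1 to -0.53, Nr4a3 to -0.93 and Il10rb to -0.88, all short of 2-fold, Aqp3 to -1.24 and Nt5e to -1.54. Averaged values of Ldlrad4, Klf3, Tox2, Dusp16, Bcl2l2, Acsl6, Cobll1, Galnt3, H2-Aa and H2-Ea lay below the floor on both arrays. The same held for Mt1, Cttn and Atp1b1 when probe sets with a cross-hybridization suffix were left out.

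**Figure D5:**
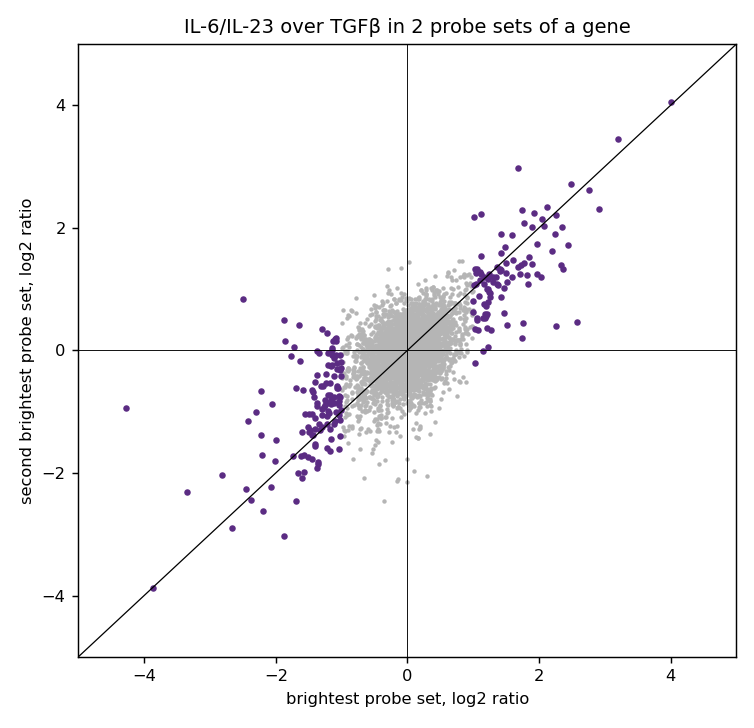
Each point is 1 of 3931 genes, at the log2 ratio of IL-6/IL-23 over TGFβ in its brightest probe set (x axis) and its second brightest (y axis), with the line at equality. Only probe sets above the floor on both arrays were used. Purple points are the 226 genes at least 2-fold apart in the brightest probe set, of which 93.4% share the sign of the second.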

How the data were processed

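RNA from 3 cultures was hybridized to Affymetrix arrays. Each deposited value is a linear intensity of a probe set. How the authors summarized, scaled and background-corrected these is not stated in the labels or headers used here. After 64 control probe sets were left out, 45037 remained: 34945 with 1 gene symbol, 932 with several and 9160 unnamed. Deposited medians were 35.8 (TGFβ), 17.8 (IL-6/IL-23) and 28.1 (IL-6/TGFβ), and the transferrin receptor control gave a ratio of 3' over 5' signal between 2.49 and 2.65. The number of arrays, 1 per condition, limits the precision. Log2 values of the deposited intensities of all 3 arrays were quantile-normalized (Python 3.11.15, numpy 2.4.6, pandas 2.3.3), which removes any true difference in total mRNA. The floor is the 95th percentile of the tissue-restricted probe sets. A gene is its probe set with the highest mean. Ratios of a floor-limited gene are bounds. The script that makes the calls was checked on simulated data, which says nothing about error between cultures. The 10 alternatives change the scaling, the floor, the fold or the probe set of a gene. Entrez identifiers of 34741 probe sets matched RefSeq genes of GRCm38.p6.

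The members, the 39 gene lists and the motifs were chosen with earlier results of these data known. Named genes are the deleted genes, Il10 and the IL-17 and IL-21 genes, the 15 largest ratios (without genes whose probe sets differ in sign) and 10 largest bounds per direction, up to 8 members per list and the runs of neighbours; all others, such as Atf4 or Il6st, were picked once their values were known. Each list is described by its counts and median. A list's members absent from single-symbol probe sets were not analysed here.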

Additional observations from a re-analysis of the deposited data

How the results depend on the processing

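Of 10 alternatives, 6 kept both counts of genes within 1.5 times the reported ones: median scaling, quantile normalization of the 2 arrays alone, hybridization control scaling, a doubled floor, probe sets averaged and probe sets without a suffix. The others gave 1022 higher and 864 lower at 1.5-fold, 135 and 107 at 3-fold, 720 and 562 with the floor at the 75th percentile, and 84 and 3375 without scaling. Of 168 named genes past 2-fold, 166 stayed past the mark after median scaling, 161 with 2-array quantile normalization, 151 after hybridization control scaling, 109 without scaling, 142 with the doubled floor, 143 with probe sets averaged, 104 at 3-fold, and 144 of the 154 that had a probe set without a suffix. None of these ratios took the opposite sign under the scaling, floor or probe set alternatives that gave a value; the 1.5-fold and 3-fold marks do not alter a ratio. Arrays differed in brightness, genes near the floor have bounds only, and no replicate exists. No paired analysis was possible because each condition has 1 array.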

Other observations

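Some gene groups outside the lists are described here by families taken after values had been seen, so their counts support nothing. Among 7 measured caspases 3 were higher in the IL-6/IL-23 culture, and 0 were lower: Casp1, which activates IL-1β (the floor, 153 and the floor, at least 3.16-fold), Casp4 and Casp6. Gsdmd, the pore protein that inflammatory caspases cleave, read 76.1, 235 and 134 (1.63), and Mlkl, the effector of necroptosis, 63.1, 205 and 58.9 (1.70). Of 6 guanylate-binding protein genes, 3 were higher, Gbp7, Gbp8 (1.49) and Gbp2b (1.29), while Gbp6 read 856, 859 and 216. These genes are near copies of each other, so their values are uncertain.

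Of 8 receptors of the TGFβ superfamily, 0 were higher and 3 lower, Tgfbr1, the BMP receptor Bmpr2 (678, 138 and 531, -2.30) and the activin receptor Acvr2a (119, 51.6 and 245, -1.20), beside the higher activin subunit gene Inhba. Of 12 sialyltransferases, 3 were lower, St8sia6 (1653, 261 and 336, -2.66), St8sia1 (-1.59) and St3gal2 (-1.01), and of 7 carbohydrate sulfotransferases 2 were higher, Chst2 (1.67) and Chst15 (at least 2.85-fold).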
